A study of Mus musculus with 5 samples.

Results

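The Snail, Twist, Zeb and Prrx genes encode transcription factors of mesenchymal cells. The 9 genes Snai1, Snai2, Snai3, Twist1, Twist2, Zeb1, Zeb2, Prrx1 and Prrx2 were taken by symbol from the main probe sets of the array, and each was read by 1 probe set, which gave 9 of 28350 main probe sets and 9 of 21630 genes tested. Membership rested on family, but the set was chosen with earlier results of these data known.

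Snail proteins are zinc finger repressors that bind E-boxes, short DNA motifs, through their fingers. They recruit histone deacetylases and demethylases through an amino-terminal SNAG domain. Zeb proteins carry zinc finger clusters on both sides of a homeodomain, bind the same class of motif and recruit CtBP. Twist proteins are basic helix-loop-helix factors that work as dimers with E proteins, and Prrx proteins are paired-class homeodomain factors of limb and craniofacial mesenchyme. In epithelial cells these factors drive the epithelial-mesenchymal transition, in which E-cadherin is lost. Fibroblasts are mesenchymal and express several of them as a matter of identity.

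Expression was measured on 5 Affymetrix arrays of mouse embryonic fibroblasts (MEFs), cells grown out of mouse embryos, which had been carried by serial passaging under the 3T3 routine to passage 40. The labels give 3 arrays of genotype MDR2-/- (knockout replicates 1, 2 and 3) and 2 of genotype MDR2+/+ (wild-type replicates 2 and 3), from littermate embryos. Mdr2 is the older name of Abcb4, the phosphatidylcholine translocator of the bile canaliculus. No label names a strain or a further treatment, or gives the number of embryos or cultures behind the arrays, so the p-values rest on the spread among these 5 samples alone, and that spread may be technical.

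The arrays were checked before the 9 genes were compared. The log2 signal of Abcb4 was 6.002, 4.63 and 5.74 on the knockout arrays and 4.05 and 3.95 on the wild-type arrays. It was not lower in the arrays labelled knockout, but the wild-type signal was too dim to show a loss. Probe sets for sequences foreign to the mouse genome had 95th percentiles of 5.71 and 5.88 on the wild-type arrays, above both Abcb4 values. The check therefore does not bear on the genotype labels. A probe set outside the deleted part would check nothing, and the deleted part is not given in the sources used here. Xist was higher in the arrays labelled knockout (log2 fold change 4.41, limma adjusted p = 0.0250) and the Y-linked Ddx3y lower (-4.40, adjusted p = 0.0267), so the genotype label and sex-linked expression cannot be told apart here. None of the 9 genes lies on the X or Y chromosome or on chromosome 5, which carries Abcb4. Of 12 fibroblast markers 10 lay above the median level of all genes, with vimentin (Vim) between 11.41 and 11.72 on every array, while Fap and Lum read between 2.11 and 3.42. The epithelial marker Epcam read 2.96 and the endothelial Cdh5 3.25 on all 5 arrays. The blood marker Ptprc lay between 3.19 and 3.23. None of 7 endothelial, 8 blood, 8 neural, 8 muscle or 8 cartilage and fat markers passed the test, and the median signal of each list was between 2.84 and 4.90 on every array. Both wild-type arrays held the same value for 26.5% of genes, and 1589 genes were equal on all 5 arrays, and limma's shared variance estimate includes them.

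**Figure D1:**
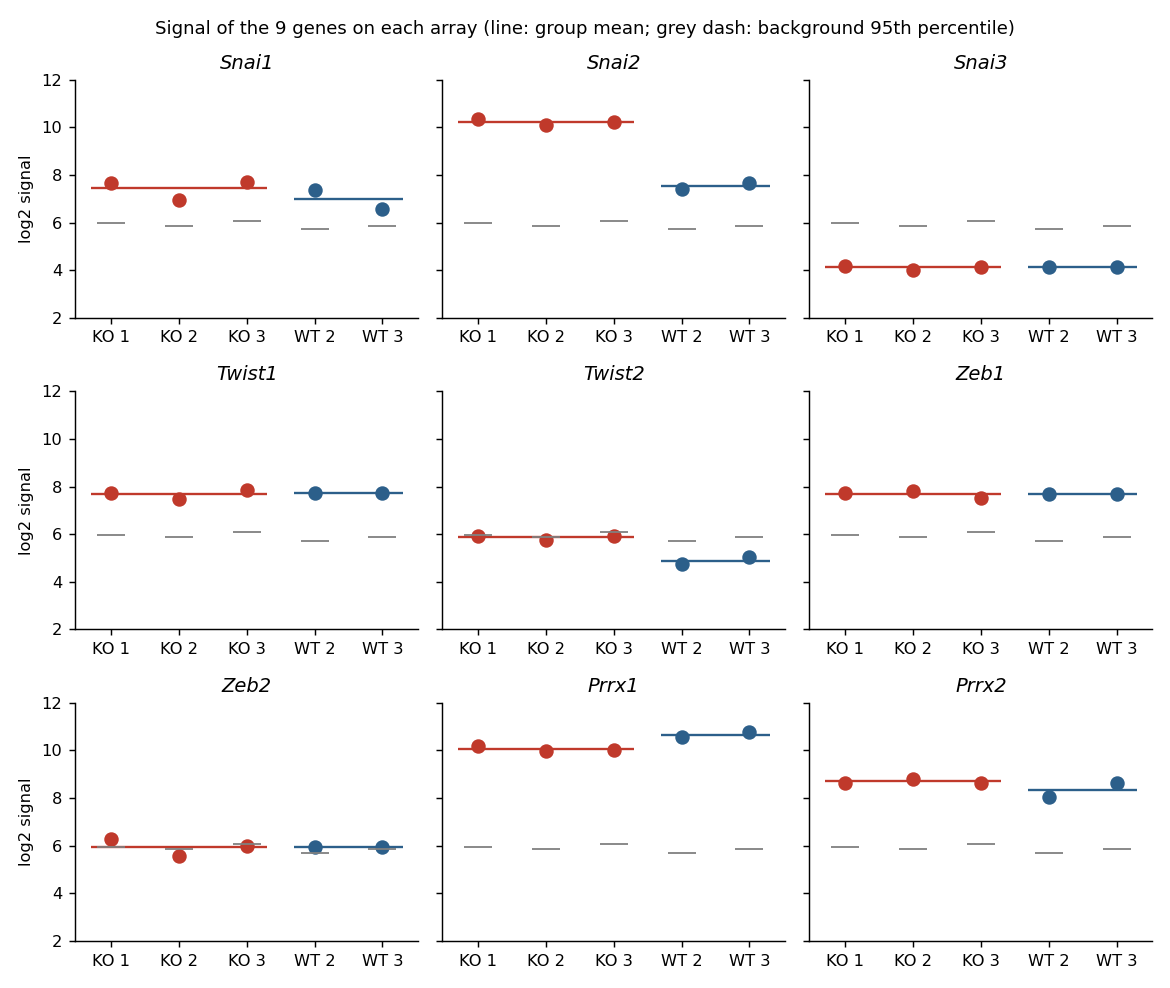
Log2 signal (vertical axis) of the 9 genes on knockout (KO) replicates 1 to 3 and wild-type (WT) replicates 2 and 3. Points are single arrays, lines are group means, and grey dashes mark the 95th percentile of 45 antigenomic probe sets (sequences foreign to the mouse genome) on that array. Snai2 sits between 10.10 and 10.34 on the knockout arrays and between 7.42 and 7.66 on the wild-type arrays.

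Among the 9 genes Snai2, which encodes Slug, rose on the arrays labelled knockout and the other 8 did not pass the test. That is 1 of 9, against 0.301% of all genes tested (65 of 21630 at an adjusted p under 0.05 with limma). Slug mRNA was 6.41-fold higher. Twist2 stood 1.98-fold higher and Prrx1 1.51-fold lower, each without overlap between the groups but short of the threshold. The groups did not overlap for 3 of 9 genes, 2 higher and 1 lower, beside 25% of all genes and 37.7% of genes at or above the 40th percentile of level. That share is near the background. At an unadjusted p under 0.05 there were 3 of 9, beside 13.6% of all genes. The median log2 fold change of the 9 genes was 0.02, and that of all genes was 0.00.

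Snai2 is the family member known from neural crest, limb mesenchyme and migrating melanoblasts and for protecting blood progenitors from p53-driven death. Its probe set (10433776, 25 probes, chromosome 16, 14705952 to 14709478, plus strand, NCBIM37) read 10.34, 10.10 and 10.21 on knockout replicates 1, 2 and 3 and 7.42 and 7.66 on wild-type replicates 2 and 3. Every knockout array was above both wild-type arrays, and the gap between the groups was many times the spread within them. The knockout mean was 10.22 ± 0.12 (SD, n = 3) and the wild-type mean 7.54 ± 0.17 (SD, n = 2). The log2 fold change was 2.68 ± 0.12 (SE), with a 95% interval of 2.35 to 3.02 and a limma adjusted p of 0.0288. It ranked 34 of 21630 genes by p and 108 by size of change. This is a bulk measurement, in which more cells of a type and more RNA per cell cannot be told apart. The difference fell on the same arrays as that in Xist, and the part of sex-linked expression in it cannot be told apart from genotype.

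The size of the Snai2 difference stayed between 2.56 and 2.80 under the 15 alternatives run, but its place past the threshold did not. Filters, variance settings, averaged probe sets and the series matrix values cannot move this size, since they leave the Snai2 values as they are. The replicate block gave the same 2.62 as leaving out knockout replicate 1. Limma's adjusted p was 0.139, 0.0729 and 0.190 without knockout replicates 1, 2 and 3, and 0.0580 without wild-type replicate 2. It was 0.0479 without wild-type replicate 3 and 0.351 with the replicate number as a block. The exact permutation test of the mean difference doubled the smaller 1-sided p. With 3 arrays against 2, this doubled p cannot go below 0.2, which is the value Snai2, Twist2 and Prrx1 each gave.

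Snai1 encodes Snail, the repressor first tied to loss of E-cadherin and a short-lived protein that many growth factors induce. It read 7.67, 6.94 and 7.72 on the knockout arrays and 7.38 and 6.59 on the wild-type arrays (probe set 10478884, chromosome 2, 167363727 to 167368314, plus strand, NCBIM37). The groups overlapped: knockout replicate 2 lay below wild-type replicate 2, and wild-type replicate 3 was lowest. The log2 fold change was 0.46 ± 0.40 (moderated SE, adjusted p = 0.617), and its 95% interval of -0.70 to 1.61 allows a rise or a fall. Snai1 had a larger spread between replicates than any other of the 9 genes in both groups, with SDs of 0.43 (n = 3) and 0.56 (n = 2).

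The human counterpart of Snai1 is known to repress its own promoter through an E-box, so the 250 bases before the mouse start site are shown (RefSeq, GRCm38.p6, chr2:167537945-167538194, plus strand). Capitals mark the E2-box, CAGGTG or its reverse complement CACCTG, the E-box form that Snail and Zeb fingers bind.
Snai1 promoter: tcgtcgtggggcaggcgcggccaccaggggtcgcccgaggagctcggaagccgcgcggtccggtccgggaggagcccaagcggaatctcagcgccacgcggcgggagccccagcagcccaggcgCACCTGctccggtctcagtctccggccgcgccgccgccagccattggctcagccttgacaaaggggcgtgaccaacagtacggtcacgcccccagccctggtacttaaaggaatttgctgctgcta
The motif starts at -126, counted from the start site, and is the only match to CANNTG in the window. An E2-box on either strand was found in 20.2% of 32851 promoter windows of the same 300 bases, and any E-box in 72.3%. The windows of Twist1, Twist2, Zeb2, Prrx1 and Prrx2 held 0 E-boxes. A match is a string of letters and not a measured site.

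Snai3, the third family member, known in mouse from muscle and lymphoid cells, read 4.19, 3.99 and 4.15 on the knockout arrays and 4.15 on both wild-type arrays (probe set 10582322, chromosome 8, 124978106 to 124984592, minus strand, NCBIM37). All 5 values were under the antigenomic 95th percentile of their array (5.71 to 6.08), and the difference was -0.04 ± 0.07 (moderated SE, adjusted p = 0.794). At this signal the array does not show whether the gene was expressed.

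Twist1, which is required for cranial neural tube closure and limb bud growth in mouse, did not separate the groups. It read 7.74, 7.48 and 7.85 on the knockout arrays and 7.72 on both wild-type arrays (probe set 10395320, chromosome 12, 34642536 to 34644696, plus strand, NCBIM37). The wild-type values fell inside the knockout range. The log2 fold change was -0.02 ± 0.13 (moderated SE, adjusted p = 0.978), with a 95% interval of -0.39 to 0.34.

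Twist2, also called Dermo1, acts in dermis and shares its helix-loop-helix partners with Twist1. It read 5.93, 5.76 and 5.92 on the knockout arrays and 4.75 and 5.03 on the wild-type arrays (probe set 10348632, chromosome 1, 93698038 to 93744605, plus strand, NCBIM37). The groups did not overlap. The knockout mean was 5.87 ± 0.10 (SD, n = 3) and the wild-type mean 4.89 ± 0.20 (SD, n = 2). The log2 fold change of 0.98 ± 0.12 (moderated SE) did not reach the threshold (adjusted p = 0.106). It passed in a fit without the genes whose 5 values were equal (adjusted p = 0.0428), where 1.79% of genes passed, and under no other alternative. All 5 values lay below the 95th percentile of the background on their arrays, so the level itself is poorly measured.

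Dnm3os, a non-coding RNA that Twist1 drives in mouse and that is processed to miR-199a and miR-214, was read by 2 probe sets. The brighter gave 4.90, 5.70 and 5.03 on the knockout arrays and 7.204 and 6.77 on the wild-type arrays, and the dimmer 3.59, 5.08 and 3.36 against 7.02 and 7.004. Both put every knockout array below every wild-type array. Neither passed the test across all probe sets, with log2 fold changes of -1.77 and -3.00 (limma adjusted p = 0.210 and 0.238). Of 28350 probe sets 0.176% passed. The mature RNAs made from this transcript have these sequences (RefSeq, GRCm38.p6, chromosome 1), with the seed, bases 2 to 8, in capitals.
mmu-miR-199a-5p: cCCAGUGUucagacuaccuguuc
mmu-miR-199a-3p: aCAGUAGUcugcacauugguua
mmu-miR-214-3p: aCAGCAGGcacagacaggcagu
Mir214 and Mir199a-2, the precursors at this locus, matched no probe set by name, and mature miRNAs were not analysed here.

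Zeb1 and Zeb2 are long multi-exon genes whose proteins repress E-cadherin and the miR-200 loci. Zeb1 read 7.72, 7.81 and 7.51 on the knockout arrays and 7.68 on both wild-type arrays (probe set 10453678, chromosome 18, 5591872 to 5774909, plus strand, NCBIM37). The wild-type values lay within the knockout range. Zeb1 had a log2 fold change of 0.003 ± 0.10 (moderated SE, adjusted p = 1), with a 95% interval of -0.30 to 0.31.

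Zeb2 read 6.28, 5.57 and 5.98 on the knockout arrays and 5.93 on both wild-type arrays (probe set 10482448, chromosome 2, 44839252 to 44968744, minus strand, NCBIM37). Its wild-type values also lay within the knockout range, and 3 of 5 values were above the antigenomic percentile. Zeb2 had a log2 fold change of 0.02 ± 0.24 (moderated SE, adjusted p = 1), with a wider 95% interval of -0.68 to 0.72. Zeb2os, the antisense RNA that overlaps the Zeb2 start, had a log2 fold change of -0.06 ± 0.05 (moderated SE, adjusted p = 0.586).

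The miR-200 family represses Zeb1 and Zeb2 through sites in their transcripts and is repressed by them in turn. Its 5 members fall into groups of shared seed (RefSeq, GRCm38.p6, chromosomes 4 and 6), shown in capitals. The first 3 share AAUACUG and the last pair AACACUG.
mmu-miR-200b-3p: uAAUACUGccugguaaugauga
mmu-miR-200c-3p: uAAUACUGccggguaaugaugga
mmu-miR-429-3p: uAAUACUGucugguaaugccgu
mmu-miR-200a-3p: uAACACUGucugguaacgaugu
mmu-miR-141-3p: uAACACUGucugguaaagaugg
The probe sets named for their precursors read 3.09 for Mir200a on all 5 arrays, 2.24 to 2.49 for Mir200b and 1.74 to 1.81 for Mir429. Mir141 read 2.05 to 2.16, and Mir200c 2.98, 2.98 and 3.74 on the knockout arrays and 2.84 and 2.98 on the wild-type arrays. All were far below the background percentile, and none passed the test (log2 fold changes of -0.08 to 0.32). Of 16 measured miRNA loci and splicing regulators 0 passed. The splicing factor genes Mbnl2 and Rbfox2 had log2 fold changes of -0.62 ± 0.06 and -0.23 ± 0.03 (moderated SE, adjusted p = 0.0779 and 0.122), and Mir199a-1, at another locus than Dnm3os, of -0.27 ± 0.17 (adjusted p = 0.554). Mbnl2 passed in the fit without equal-value genes (adjusted p = 0.0417), after quantile normalization (0.0269) and without the dimmest genes (0.0431).

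Prrx1 marks limb bud mesenchyme and is a common driver gene for limb-specific recombination in mouse. It was the only one of the 9 to lie lower without overlap in the arrays labelled knockout. It read 10.19, 9.99 and 10.03 on the knockout arrays and 10.55 and 10.78 on the wild-type arrays (probe set 10359624, 43 probes, chromosome 1, 165175247 to 165243781, minus strand, NCBIM37). The knockout mean was 10.07 ± 0.10 (SD, n = 3) and the wild-type mean 10.67 ± 0.16 (SD, n = 2). The log2 fold change was -0.60 ± 0.10 (moderated SE), with a 95% interval of -0.90 to -0.29. The adjusted p was 0.169 and stayed above 0.05 under all 15 alternatives, between 0.0787 and 0.431. The Prrx1 promoter window held 1 copy of TAATTA, the core motif of many homeodomains, at -173, as 5.29% of windows did on either strand.

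Prrx2 overlaps with Prrx1 in skeletal and craniofacial development in mouse. It read 8.65, 8.80 and 8.65 on the knockout arrays and 8.05 and 8.65 on the wild-type arrays (probe set 10471067, chromosome 2, 30700801 to 30736773, plus strand, NCBIM37). Wild-type replicate 2 alone was low, and wild-type replicate 3 equalled knockout replicate 3. Its log2 fold change was 0.35 ± 0.21 (moderated SE, adjusted p = 0.554). Without wild-type replicate 2 it was 0.05 (adjusted p = 0.923) and without wild-type replicate 3 it was 0.65 (adjusted p = 0.144), so 1 array set its size.

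**Figure D2:**
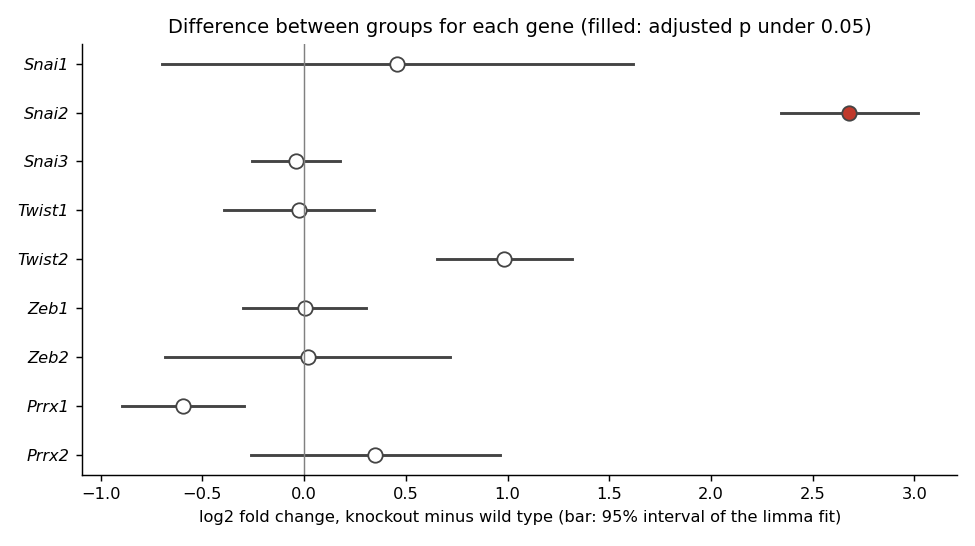
Log2 fold change of each gene, knockout minus wild type (horizontal axis), with its 95% interval from the limma fit on 3 knockout and 2 wild-type arrays. The filled point, Snai2 at 2.68, passed an adjusted p of 0.05. The intervals of Twist2 and Prrx1 leave out 0 but their adjusted p-values are 0.106 and 0.169.

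The members of each pair of related genes were set against each other within each array. This comparison was chosen after the values had been seen and covered 4 pairs. The Snai2 minus Snai1 log2 difference was 2.67, 3.16 and 2.49 on the knockout arrays and 0.03 and 1.07 on the wild-type arrays, so Snai2 gained 2.22 on Snai1. Prrx2 gained 0.95 on Prrx1, from -2.32 ± 0.27 (SD, n = 2) to -1.37 ± 0.17 (SD, n = 3). No size is given for Twist2 against Twist1, since Twist2 lay under the antigenomic percentile on all 5 arrays. For the Snai, Twist and Prrx pairs the groups did not overlap, and for Zeb2 against Zeb1 they did (change of 0.02). The doubled exact permutation p was 0.2 for each of those 3 pairs, the smallest it can be here. After adjustment over 4 pairs it was 0.267. The differences are values within arrays and not the relative abundance of the transcripts.

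Profiles over the 5 arrays were compared with those of the other 10814 genes above the median level, by the Euclidean distance between log2 values centred on each gene's mean. The genes most like Snai2 were Ltbp2, a latent TGF-beta binding protein gene (distance 0.24), the microfibril gene Mfap2 (0.28) and the fatty acid transport protein gene Slc27a3 (0.32). Their log2 fold changes were 2.56, 2.56 and 2.61 (limma adjusted p = 0.0342, 0.0442 and 0.0267). Nearest to Twist2 were Fmc1 (0.09), the receptor phosphatase gene Ptprf (0.10) and 1700025G04Rik (0.14), none of them past the test. Snai1 had another shape, with knockout replicate 2 and wild-type replicate 3 low. Its nearest genes were the cytokine gene Mif (0.21), Mfge8 (0.24) and the glycolytic enolase gene Eno1 (0.25), with adjusted p-values of 0.554 each. With 5 arrays in 2 groups, likeness rests mostly on the group difference.

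**Figure D3:**
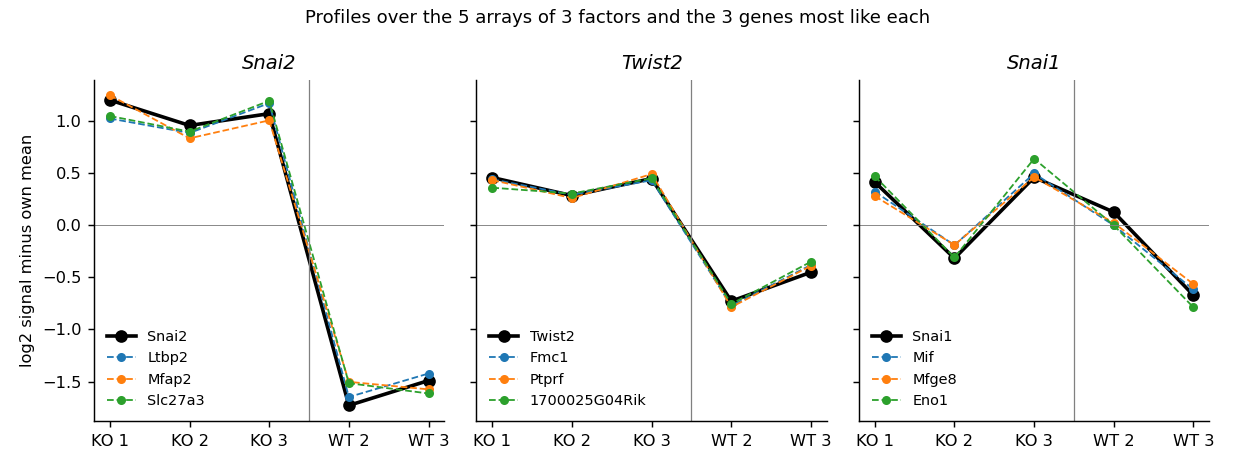
Log2 signal minus the gene's own mean (vertical axis) on the 5 arrays for Snai2, Twist2 and Snai1 (black) and the 3 genes nearest to each (dashed). The vertical line parts the knockout from the wild-type arrays. Snai2 and Twist2 step down between the groups, and Snai1 dips on knockout replicate 2 and wild-type replicate 3.

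No tested neighbour of the 9 genes passed the threshold. Within 500 kb of Snai2 lay 7 tested genes, with log2 fold changes of 0.00 to 0.56 and the transporter gene Abcc1 at the upper end (adjusted p = 0.205). Around Twist2 there were 10 (-0.56 to 0.17) and around Prrx1 8, all between -0.22 and 0.13 except Fmo1, a flavin monooxygenase gene. Fmo1 had a log2 fold change of 4.70 ± 0.42 (moderated SE, adjusted p = 0.0695). Near Snai1, the prostacyclin synthase gene Ptgis was at 2.00 ± 0.15 (moderated SE, adjusted p = 0.0588). Both were chosen after their values were seen.

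Twist proteins need E protein partners, and Id proteins take those partners away. Of 9 measured E protein, Id and Hand genes 0 passed. The E protein gene Tcf4 read 8.20, 8.52 and 8.46 on the knockout arrays and 9.31 on both wild-type arrays, a log2 fold change of -0.92 ± 0.12 (moderated SE, adjusted p = 0.114). It passed in the fit without equal-value genes (adjusted p = 0.0478), where 1.79% of all genes passed, and under no other alternative. Tcf3 and Tcf12 had log2 fold changes of 0.10 and -0.08. Id1, Id2 and Id3, targets of BMP signalling, each had their lowest knockout value on replicate 2, at 7.32, 5.97 and 9.77, and missed the test (adjusted p = 0.789, 0.822 and 0.554). Among 11 Twist-related and Scratch genes 0 passed and 0 were without overlap. The tendon factor gene Scx had the largest difference (-0.61 ± 0.46, moderated SE, adjusted p = 0.566), while Tcf15 read 4.38 on every array and Scrt2 4.82 to 5.02.

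Of 21 measured paired-class homeobox relatives of Prrx, 20 did not pass. Pitx1, a hindlimb identity gene, read 7.56, 8.01 and 7.69 on the knockout arrays and 5.46 and 5.55 on the wild-type arrays, a log2 fold change of 2.25 ± 0.16 (moderated SE, adjusted p = 0.0573). It passed in the fit without equal-value genes (adjusted p = 0.0163). Otp and Pax9 lay at or below 5.18 on every array, with log2 fold changes of -0.06 and -0.21.

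The proteins that Snail and Zeb factors recruit were represented by 20 co-repressor and chromatin genes, of which 0 passed, and the groups did not overlap for 4 higher and 5 lower (45.0% of the list). All 20 lay above the median level, and 37.7% of genes at or above the 40th percentile of level were without overlap, so the count is near that background. Rcor2, a CoREST subunit that bridges the demethylase LSD1 to its targets, had a log2 fold change of 1.65 ± 0.32 (moderated SE, adjusted p = 0.186). The acetyltransferase genes Kat2b and Ep300 were at -1.41 ± 0.21 and -0.69 ± 0.15 (moderated SE, adjusted p = 0.139 and 0.216), and the Polycomb gene Suz12 at -0.52 ± 0.16 (adjusted p = 0.302). Kat2b lay below the antigenomic percentile on every array, so the size of its difference is poorly measured. Kinases, ubiquitin ligases and oxidases that act on these proteins numbered 20, with 0 past the test. For 9 of them the groups did not overlap (45.0% of the list). In either direction 25% of all genes were without overlap, and 37.7% of those at or above the 40th percentile of level. The count is near the latter share. All 9 were lower in the knockout arrays. Genes lower without overlap were thus 45.0% of the list, beside 14.4% of all genes and 22.9% of those at or above that percentile. All 20 lay above the median level, and no share at a matched level was computed. The comparison by direction was made after the values were seen. The median log2 fold change of the list was -0.15. The ligase genes Siah1a and Fbxl5 had log2 fold changes of -0.52 ± 0.04 and -0.70 ± 0.19 (moderated SE, adjusted p = 0.0675 and 0.266), the lysyl oxidase gene Loxl3 of -0.67 ± 0.20 (adjusted p = 0.294) and the kinase gene Pak1 of -0.47 ± 0.21 (adjusted p = 0.516). Siah1a passed in the fit without equal-value genes (adjusted p = 0.0417).

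Signals and factors known to induce the 9 genes had 0 of 33 past the test, with 11 higher and 7 lower without overlap and a median log2 fold change of 0.04. That is 54.5% of the list, beside 25% of all genes and 37.7% of those at or above the 40th percentile of level. The list is bright, with 31 genes above the median level of all genes, and no share at a matched level was computed. Whether the excess belongs to level or to these genes was not tested. The ligand gene Tgfb2 read 7.33, 7.01 and 7.08 on the knockout arrays and 6.31 and 6.20 on the wild-type arrays (0.89 ± 0.12, moderated SE, adjusted p = 0.125). Msx1, a BMP-responsive homeobox gene, was at -1.64 ± 0.26 (moderated SE, adjusted p = 0.146). Egr1, an immediate early gene that activates Snai1, read 9.80, 8.75 and 9.89 on the knockout arrays and 9.95 and 7.11 on the wild-type arrays. Like Snai1 it was lowest on wild-type replicate 3 and, among the knockout arrays, on replicate 2.

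**Figure D4:**
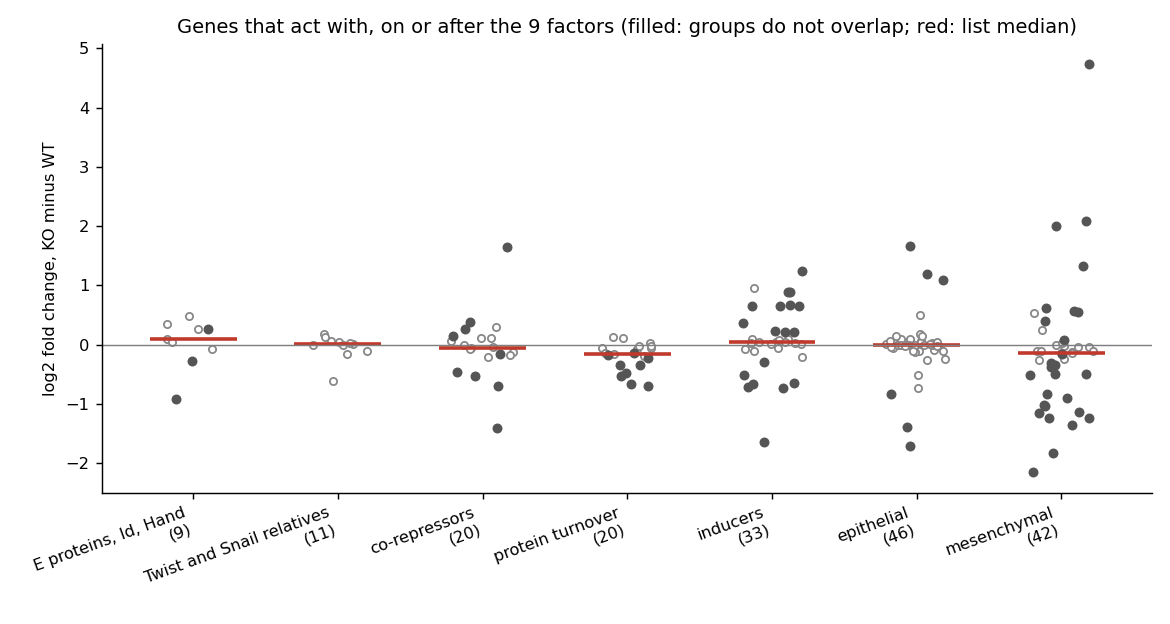
Log2 fold change, knockout minus wild type, of each measured gene (vertical axis) in 7 lists of genes that act with, on or after the 9 factors, with the number measured under each name. Filled points have no overlap between groups and red lines are list medians, which lie between -0.15 and 0.10. Horizontal scatter only separates points.

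Epithelial genes are what these factors repress, and most lay below the median level of all genes. Of 46 epithelial junction, keratin and regulator genes 0 passed, the median log2 fold change was 0.00, and 9 lay above that level. For 6 of the 46 the groups did not overlap, 3 higher and 3 lower. The share without overlap depends on level: it was 25% of all genes and 37.7% of those at or above the 40th percentile. No share was computed for genes as dim as most of this list. Whether the list differs from genes of its own level was therefore not tested. E-cadherin (Cdh1) read 4.99, 5.34 and 5.62 on the knockout arrays and 3.88 and 4.38 on the wild-type arrays, a log2 fold change of 1.19 ± 0.28 (moderated SE, adjusted p = 0.224). All 5 values lay below the 95th percentile of the background. The tight junction gene F11r was at 1.67 ± 0.50 (moderated SE, adjusted p = 0.304), with knockout replicate 1 at 6.26 and the other knockout arrays at 4.99. Only knockout replicate 1 lay above that percentile for F11r. The desmosomal genes Jup and Pkp2 were at -1.38 ± 0.28 and -1.71 ± 0.24 (moderated SE, adjusted p = 0.196 and 0.129), and Pkp1, chosen after its values were seen, at 1.09 ± 0.26 (adjusted p = 0.226). Pkp1 and Pkp2 lay below the background percentile on every array, so the sizes of their differences are poorly measured. Epcam, Krt19, Esrp1, Elf3 and Ehf had equal values on all 5 arrays.

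**Figure D5:**
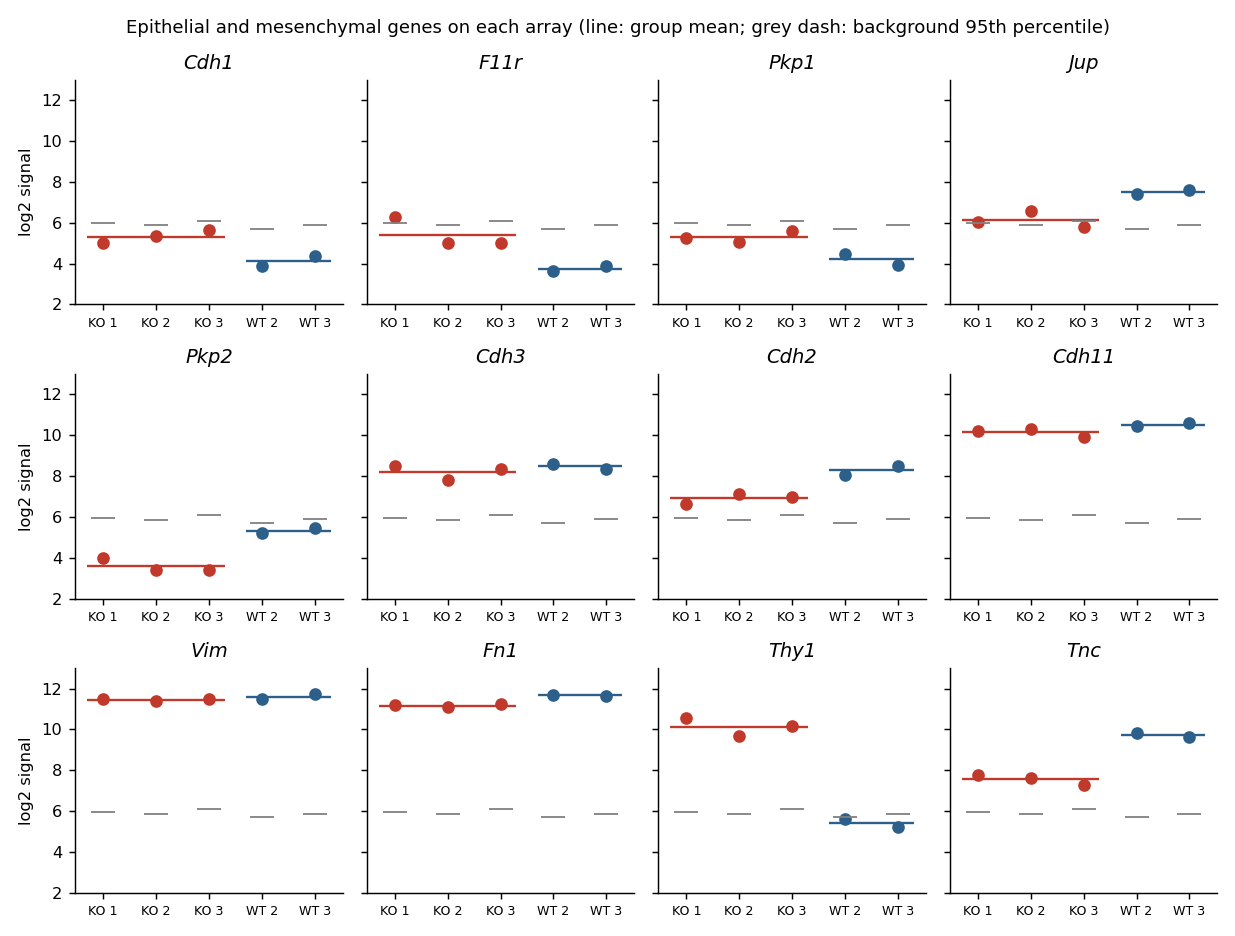
Log2 signal (vertical axis) of 6 epithelial genes and 6 mesenchymal genes on each array, with group means as lines and the background 95th percentile as grey dashes. Cdh1, F11r and Pkp1 lie higher and Jup and Pkp2 lower on the knockout arrays without overlap, and N-cadherin (Cdh2), Fn1 and Tnc lie lower while Thy1 lies higher.

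Mesenchymal genes were split. Of 42 measured 0 passed, and the groups did not overlap for 64.3% of them, 9 higher and 18 lower. Beside this stood 25% of all genes and 37.7% of genes at or above the 40th percentile of level. The list is bright, with 38 genes above the median level of all genes, and no share at a matched level was computed. Whether the excess belongs to level or to the list was not tested. The median log2 fold change was -0.14. Thy1, a surface glycoprotein of fibroblasts, read 10.55, 9.70 and 10.16 on the knockout arrays and 5.60 and 5.22 on the wild-type arrays (4.73 ± 0.31, moderated SE, adjusted p = 0.0523). The adhesion-modulating matrix gene Tnc read 7.79, 7.64 and 7.30 against 9.82 and 9.64 (-2.15 ± 0.18, moderated SE, adjusted p = 0.0675). Thy1 and Tnc both passed in the fit without equal-value genes (adjusted p = 0.0151 and 0.0200).

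N-cadherin, which replaces E-cadherin in mesenchymal cells, read 6.64, 7.13 and 6.98 on the knockout arrays and 8.05 and 8.50 on the wild-type arrays (-1.36 ± 0.23, moderated SE, adjusted p = 0.158). Fibronectin (Fn1) was at -0.50 ± 0.06 and Vim at -0.15 ± 0.08 (moderated SE, adjusted p = 0.110 and 0.554). The stromelysin gene Mmp3 was at 2.08 ± 0.76 (moderated SE, adjusted p = 0.395). Mmp3 lay below the antigenomic background percentile on every array, so this size is poorly measured. Collagen genes Col1a1 and Col3a1 were at -0.82 ± 0.23 and -1.01 ± 0.15 (moderated SE, adjusted p = 0.282 and 0.139). Decorin (Dcn) read 7.61 on knockout replicate 2 against 10.25 and 10.44 on the other knockout arrays, so that array stood apart for Dcn as it did for Snai1 and the Id genes. The SDs over the knockout arrays were 0.12 for Snai2 and 0.10 for both Twist2 and Prrx1 (n = 3).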

How the data were processed

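Total RNA of 5 samples was amplified and labelled with biotin, per the labels' protocols, and hybridised to Affymetrix arrays. The deposited log2 values, 1 per probe set and array, were made by the authors with Affymetrix Expression Console, per the submitters' processing notes. Neither its version nor its summary and normalization steps are stated in those notes. A further deposited table of the same log2 values differed for 0 of 35556 probe sets.

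Controls were dropped, and symbols were brought up to date through RefSeq: of 28350 main probe sets 22267 were matched by accession and 1972 by symbol, 765 kept their name, 2 had several and 3344 none. The probe set with the highest mean stood for a gene. Knockout was compared with wild type with limma 3.58.1 in R 4.3.3 (lmFit, eBayes), without covariates, and p-values were adjusted by Benjamini-Hochberg over 21630 genes, or over 28350 probe sets in a second fit, with a threshold of 0.05. On simulated data for this comparison with 21630 genes, 52.2%, 78.8% and 94.4% of genes changed by 1, 2 and 4 on the log2 scale were recovered, with 14.3 unchanged genes called per data set. The small number of arrays limits the precision.

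The members and gene lists were chosen with earlier results of these data known. Named were the 9 genes, each list gene past the threshold and up to 4 more per list with the largest differences among genes above the median level, defining epithelial and mesenchymal genes, and the 3 nearest profiles per gene with a range of at least 1. Other genes named were chosen after their values were seen. Some genes that this rule takes are not reported here. Alternatives were quantile or median scaling, filters on dim genes and on equal values, averaged probe sets, trended or robust variance, array weights, the replicate block, the series matrix values and leaving out each array. Promoter and miRNA sequences came from RefSeq (GRCm38.p6) and probe set positions from the deposited annotation (NCBIM37). Knockout and wild-type arrays share replicate numbers 2 and 3. Deviations from the group means correlated at -0.17 and -0.14 within these numbers, and the numbers were not taken as pairs. The deviations of 2 wild-type arrays mirror each other, so this check cannot exclude pairing.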

Additional observations from a re-analysis of the deposited data

How the results depend on the processing

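Of 21630 genes, 65 passed in the reported fit. The count was 363 after quantile normalization, 250 with array medians subtracted, 270 without the dimmest genes, 359 without genes of equal values and 107 with array weights. It ranged from 0 to 335 when 1 array was left out: for knockout replicates 1, 2 and 3 it was 0, 2 and 0, and for wild-type replicates 2 and 3 it was 189 and 335. Unadjusted limma p-values under 0.05 numbered 2297 and 2196 in the fits with 0 calls. With the replicate block it was 0 (2319 unadjusted). The causes were not tested.

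Of the 9 genes, 1 passed in the reported fit, 2 without genes of equal values, 0 with the replicate block (3 unadjusted) and 0 to 1 with an array left out (3 unadjusted in each fit with none). Over probe sets the count was 0 with robust variance, 0 with the block and 0 to 1 with an array left out. Of 256 list genes, 1 passed in the reported fit, 7 after quantile normalization, 6 with medians subtracted, 7 without the dimmest genes, 9 without equal values, 4 with array weights, 0 with the block (33 unadjusted) and 0 to 3 with an array left out. Whether numbers 2 and 3 pair the arrays is not settled. With them as a block Snai2 had a log2 fold change of 2.62 (limma adjusted p = 0.351).

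Small differences turned sign. Twist1 was at 0.0453 after quantile normalization and Zeb1 and Zeb2 at -0.0329 and -0.0179 with medians subtracted. With the block Zeb1 and Zeb2 were at -0.0146 and -0.15. With an array left out, Snai3 ranged from -0.0818 to 0.0209, Twist1 from -0.10 to 0.0788, Zeb1 from -0.0633 to 0.0869 and Zeb2 from -0.15 to 0.20. Snai1, Snai2, Twist2, Prrx1 and Prrx2 kept their sign under all 15 alternatives. The filters, variance settings, averaged probe sets and series matrix values could not have changed it. Without a wild-type array, the lone one is assumed to vary like the knockout arrays.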

Other observations

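Cartilage and fat markers had 0 of 8 past the test, with the groups apart for 3, all higher in the arrays labelled knockout (37.5% of the list, beside 25% of all genes). The cartilage proteoglycan gene Acan read 5.08, 4.84 and 5.48 on the knockout arrays and 3.41 on both wild-type arrays, a log2 fold change of 1.72 ± 0.22 (moderated SE, limma adjusted p = 0.116). It passed without genes of equal values (adjusted p = 0.0459). Acan lay below the antigenomic background percentile on every array, so the size of its difference is poorly measured. The chondrogenic factor gene Sox9 was at 0.71 ± 0.16 and the fatty acid binding protein gene Fabp4 at 1.98 ± 0.55 (moderated SE, adjusted p = 0.224 and 0.279). The neuronal marker Stmn2 read 9.09, 7.54 and 9.10 against 6.82 and 7.16 (adjusted p = 0.427), lowest among the knockout arrays on replicate 2. The macrophage marker Cd68 read 6.25 on wild-type replicate 2 and between 4.35 and 4.61 on the other 4 arrays.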
